A study of Rattus norvegicus with 10 samples.

Results

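Muscle taken after 34 days of acupuncture was compared with muscle taken before therapy, in female Wistar rats that all carried collagen-induced arthritis, an arthritis raised by immunisation with type II collagen. The group RA_0 holds 2 libraries from arthritic rats killed before any therapy, and the group AP_34d holds 2 libraries from rats killed after 34 days of mechanical stimulation, in which a short steel needle was put in at both sides of the lower back and below the knee and twirled briefly at the start of each session, on every other day. The group PLA_34d, 2 libraries from arthritic rats that received a saline injection into the peritoneum once a week for the same 34 days, is set beside both. No source used here says that the replicates of a group came from separate rats, so that p-values measure only the spread between these samples, which may be technical. The tissue was the layer beneath the skin around the stimulated points, muscle included, all animals had been shaved there, and blood had been drawn under ether. The ages of the rats and the hour of sampling are not given in the sources used here, so that acupuncture, the course of the arthritis, growth and time of day cannot be told apart in AP_34d against RA_0. Transcripts with at least 1 CPM (reads per 1000000, scaled between libraries) in both libraries of AP_34d or in both libraries of RA_0 were described, which gave 9815 of the 17221 transcripts in the table (57.0%), of 9693 gene symbols. Of these, 9220 reached that level in both groups, 273 only in AP_34d and 322 only in RA_0, so that the last 2 kinds entered through the group in which they were higher.

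Skeletal muscle sets its protein mass by the balance of synthesis and breakdown, and breakdown is switched on by FoxO transcription factors, which drive the ubiquitin ligases Fbxo32 (atrogin-1) and Trim63 (MuRF1) and genes of autophagy, the digestion of the cell's own parts in lysosomes. Glucocorticoids, steroid hormones of stress and inflammation, act on many of the same genes and on Pdk4, an enzyme that turns muscle from glucose to fatty acids. Muscle fibres also hold a circadian clock, in which Arntl (Bmal1) peaks when Dbp is low and the other way round.

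The 4 compared libraries held 5371687 and 6115093 counted reads in RA_0 and 5842104 and 6325357 in AP_34d, so that 3 reads, the limit that a count of 0 allows, stood for between 0.446 and 0.716 CPM. Muscle genes led each library: the summed level of 8 muscle markers, among them the actin Acta1 and the creatine kinase Ckm, was 283622 and 151402 CPM in RA_0 and 233966 and 167473 CPM in AP_34d. In PLA_34d it was 95226 and 213182 CPM, so that PLA_34d replicate 1 held the least of these libraries. The part of this in values set beside PLA_34d was not tested. The replicates of AP_34d differed more from each other than those of RA_0. Across transcripts, which are not independent replicates, Pearson's r on the log2 scale was 0.961 between the RA_0 libraries and 0.940 between the AP_34d libraries, and replicate 1 of AP_34d stood as near to RA_0 (r = 0.966 and 0.962) as the RA_0 libraries stood to each other. Replicate 2 of AP_34d stood apart (r = 0.918 and 0.943 with RA_0). It was at least 2-fold above the RA_0 mean in 814 transcripts and at least 2-fold below in 655, against 238 and 261 for replicate 1. The share of reads from the ribosomal RNA Rn45s was 1.12% and 0.876% in RA_0, 1.12% in AP_34d replicate 1 and 0.336% in AP_34d replicate 2. The part of these differences in the results was not tested, and both AP_34d libraries are therefore given throughout.

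No transcript passed the test after adjustment for the number of tests. limma, fitted over all 10 libraries of the series on log2(CPM + 1), called 0 of 10259 transcripts (0%) with the threshold at 0.05, with a smallest adjusted p of 0.260, and 489 (4.77%) had an unadjusted p under 0.05, where that threshold alone allows 5%. limma-voom called 0 (416 at an unadjusted p under 0.05), edgeR's quasi-likelihood test called 0 (538), and DESeq2 called 33 (575), of which 22 were higher in AP_34d (0.219%) and 11 lower (0.109%) among the 10060 transcripts to which it gave an adjusted p. The rule the study used, an unadjusted p under 0.05 with at least a 2-fold change and a mean of at least 1 CPM, was met by 153 transcripts higher in AP_34d (1.49%) and 136 lower (1.33%). The study applied its rule to a limma-voom fit, whereas here it was read from the limma fit on log2(CPM + 1). With limma-voom, 131 transcripts met it as higher and 137 as lower. This rule makes no allowance for the number of tests, and below it serves only to say which transcripts differed most. Of the 150 higher and 136 lower among the 9815 described, 23 and 34 entered only through the group in which they were higher. Both AP_34d libraries lay above both RA_0 libraries in 1630 of the 9815 described transcripts (16.6%) and below both in 1590 (16.2%). The median log2 change was -0.01, with quartiles at -0.30 and 0.30, and the median distance between replicates was 0.458 in AP_34d and 0.385 in RA_0.

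**Figure D1:**
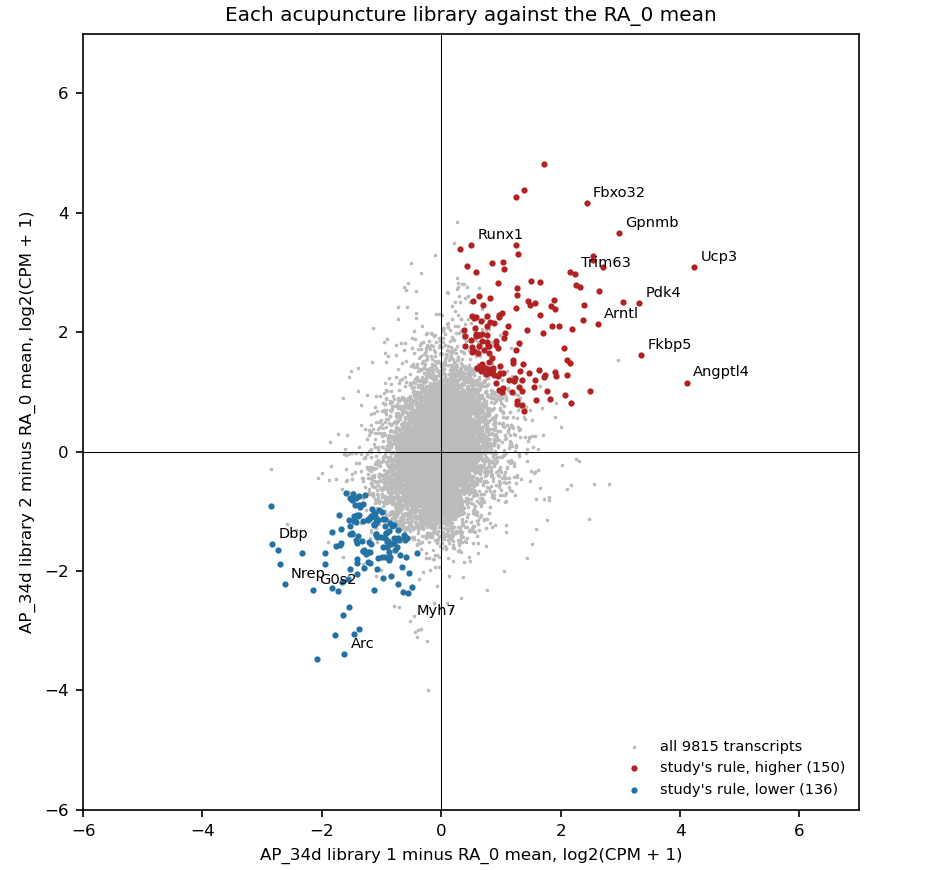
Change of each of the 9815 transcripts in AP_34d replicate 1 (horizontal axis) and in AP_34d replicate 2 (vertical axis), each as log2(CPM + 1) minus the mean of the 2 RA_0 libraries, with transcripts that met the study's rule in red (150 higher) and blue (136 lower). The cloud is taller than it is wide, since replicate 2 stood further from RA_0, and Ucp3, Pdk4 and Fbxo32 lie far from 0 on both axes.

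Part of the genes that break down muscle protein stood higher in both AP_34d libraries. Of 23 transcripts on a list of FoxO factors, ubiquitin ligases and autophagy genes, 9 met the study's rule, all higher in AP_34d, where 1.49% of all transcripts did, and 13 had both AP_34d libraries above both RA_0 libraries, where 16.6% of all did. None was lower by either count, though replicate 1 lay below both RA_0 libraries in 2 members and replicate 2 in 1 (32.2% and 36.6% of all transcripts did). The list's median log2 change was 0.83. Taken singly, replicate 1 gave a median of 0.90 and replicate 2 of 1.04, while the PLA_34d libraries gave -0.29 and 0.12. In this list, as in all that follow, limma called 0 members.

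Fbxo32 (NM_133521, rn4 chr7:94909568-94942444, minus strand), the F-box subunit of a ubiquitin ligase that marks muscle proteins for destruction, stood at 21.2 and 33.1 CPM in RA_0 and at 148 and 490 CPM in AP_34d. Both AP_34d libraries lay far above RA_0 and above both PLA_34d libraries, which held 37.1 and 29.9 CPM. The log2 change was 3.30 ± 0.66 (SE), an 11.7-fold ratio of the mean CPM, with a limma adjusted p of 0.419 and values between 0.000127 (DESeq2) and 1 over the alternatives. Trim63 (NM_080903, rn4 chr5:153059573-153073907, plus strand), a ligase of the sarcomere, stood at 306 and 276 CPM in RA_0 and at 1375 and 2296 CPM in AP_34d. The groups did not overlap, the PLA_34d libraries held 196 and 364 CPM, and the log2 change was 2.61 ± 0.61 (SE, limma adjusted p 0.722, and between 0.00349 and 1 over the alternatives). Foxo1 (NM_001191846), the transcription factor named above, stood at 8.59 and 10.5 CPM in RA_0 and at 46.9 and 42.9 CPM in AP_34d, a log2 change of 2.12 ± 0.61. One PLA_34d library held 39.4 CPM, a little less than either AP_34d library, and the other 13.6 CPM, and its difference between AP_34d and PLA_34d was 0.91 (limma adjusted p 0.889).

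The 300 bases around the Trim63 start are shown because they hold both kinds of site by which this gene is known to be driven. The window was taken from RefSeq (GRCr8, chr5:151816986-151817285, plus strand, 250 bases before the start to 50 after it), and capitals mark, first, a match to the glucocorticoid response element from 219 to 207 bases before the start and, second, the letters of a FoxO site (TGTTTAC) from 205 to 199 bases before it.
Trim63 promoter: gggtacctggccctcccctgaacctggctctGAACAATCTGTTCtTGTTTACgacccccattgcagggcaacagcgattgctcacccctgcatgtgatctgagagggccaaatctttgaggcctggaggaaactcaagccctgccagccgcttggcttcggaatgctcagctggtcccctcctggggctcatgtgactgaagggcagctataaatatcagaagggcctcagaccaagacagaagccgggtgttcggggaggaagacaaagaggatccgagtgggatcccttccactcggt
Both strands of 33469 RefSeq windows of this length were searched, and 3.78% held the FoxO letters and 0.439% the glucocorticoid response element, sought as its 2 half-sites with any 3 bases between them. Among the 16 transcripts of the breakdown list that matched a window, Trim63 alone held either one. Of the 14 genes with a window on the glucocorticoid response list described below, 0 held the glucocorticoid response element. The FoxO letters were in 2 of those 14 (Klf9 and Tsc22d3). A match is a description of the letters and says nothing of binding in these rats.

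Other ligases and autophagy genes stood in the same order with smaller distances. Cblb, a ligase that acts on insulin signalling, stood at 8.11 and 18.1 CPM in RA_0 and at 30.5 and 42.0 CPM in AP_34d. Fbxo30, a further ligase known from wasting muscle, stood at 22.4 and 27.8 against 36.5 and 148 CPM, so that most of its difference came from replicate 2, while Fbxo31 stood at 8.35 and 5.79 against 12.9 and 18.8 CPM. Gabarapl1, which coats the autophagosome, stood at 131 and 233 CPM in RA_0 and at 575 and 415 CPM in AP_34d. Ulk1, the kinase that starts autophagy, stood at 73.2 and 88.2 against 158 and 166 CPM. The lysosomal protease Ctsl1 (cathepsin L) stood at 148 and 176 CPM in RA_0 and at 598 and 938 CPM in AP_34d, with 107 and 234 CPM in PLA_34d. None of the groups named in these sentences overlapped, and the log2 changes ran from 1.00 (Ulk1) to 2.21 (Ctsl1). Foxo3, a second FoxO factor, was closer to RA_0, with 9.54 and 14.9 against 17.8 and 20.8 CPM and a log2 change of 0.64 ± 0.38.

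The proteasome, the chamber that digests ubiquitin-tagged proteins, differed little per subunit but mostly to 1 side. Of 34 subunit transcripts, 0 met the study's rule, yet 21 had both AP_34d libraries above both RA_0 libraries (16.6% of all transcripts did) and none had both below, with a median log2 change of 0.50. Replicate 1 stood above both RA_0 libraries in 23 subunits (28.2% of all transcripts did) and replicate 2 in 25 (39.1%), and single library medians were 0.31 and 0.52, against -0.64 and -0.01 for the PLA_34d libraries. The -0.64 is that of PLA_34d replicate 1, which also held the lowest sum of muscle markers. Psmd3, a subunit of the regulatory cap, stood at 172 and 145 CPM in RA_0 and at 258 and 296 CPM in AP_34d. Psmd12, another, stood at 172 and 120 against 204 and 258 CPM, and Psmd14, which removes the ubiquitin chain, at 53.4 and 42.9 against 56.6 and 91.4 CPM. Psma7, of the core, overlapped between the groups (269 and 136 against 216 and 219 CPM).

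The proteasome activator Psme4 (NM_001025140), chosen after its values were seen, stood at 253 CPM in both RA_0 libraries and at 553 and 1089 CPM in AP_34d, a log2 change of 1.61 ± 0.40. AP_34d replicate 2 lay well above replicate 1, and Psme4 was among the 33 transcripts that DESeq2 called.

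**Figure D2:**
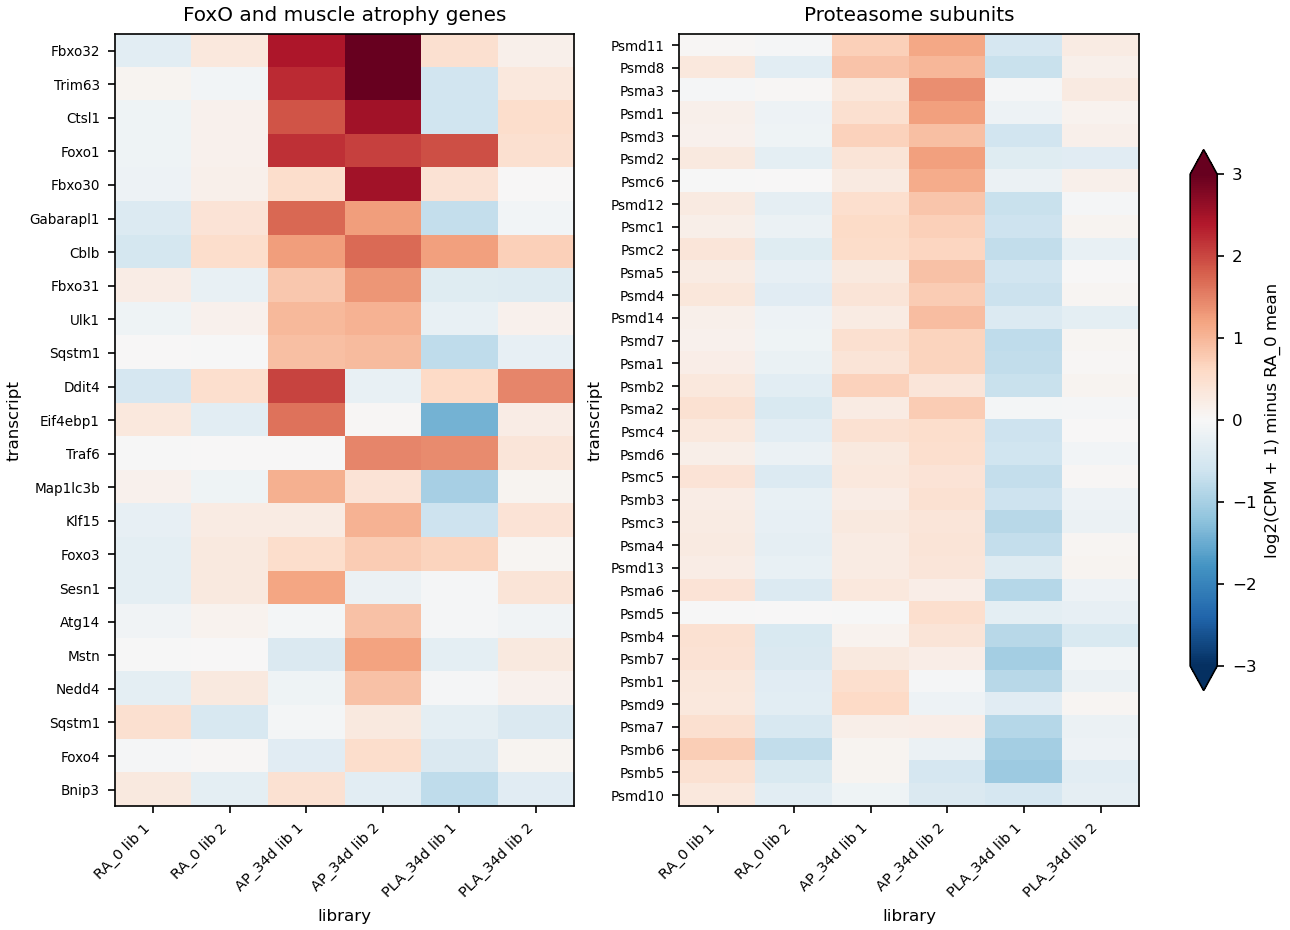
Level of each FoxO and muscle atrophy transcript (left) and each proteasome subunit (right) in the 2 RA_0, 2 AP_34d and 2 PLA_34d libraries, as log2(CPM + 1) minus the RA_0 mean, red above and blue below. The AP_34d columns are red for nearly all transcripts of both lists and the first PLA_34d column is mostly blue in the proteasome list, where its median was -0.64.

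Tnfrsf12a (NM_181086, rn4 chr10:12940334-12942343, minus strand), the receptor of the cytokine TWEAK, which is known to be low in healthy muscle and to appear in muscle that loses its nerve or is injured, stood at 10.7 and 9.95 CPM in RA_0 and at 58.0 and 50.9 CPM in AP_34d. The replicates of each group lay close together, PLA_34d held 6.51 and 9.81 CPM, and the log2 change was 2.29 ± 0.36 (limma adjusted p 0.273, and between 0.000195 and 1 over the alternatives). It also stood 2.62 above PLA_34d (limma adjusted p 0.147). The other members of the TWEAK and NF-kB list were nearer to RA_0: 1 of 10 met the study's rule (Tnfrsf12a, where 1.49% of all did as higher), 3 lay above without overlap and 1 below (16.6% and 16.2% of all), and the median was 0.33. Tnfsf12, the ligand TWEAK, stood at 34.8 and 35.9 CPM in RA_0 and at 28.7 and 19.4 CPM in AP_34d. Map3k14, the kinase that takes the receptor's signal to NF-kB, overlapped (10.5 and 19.6 against 18.7 and 57.7 CPM), and the NF-kB subunit Nfkb2 stood at 22.4 and 23.5 against 29.7 and 58.4 CPM.

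Among genes of fuel choice, a handful stood far from RA_0 while the list as a whole did not. Ucp3 (NM_013167, rn4 chr1:157896001-157909609, plus strand), a carrier of the inner mitochondrial membrane that is high when muscle burns fatty acids, stood at 36.3 and 103 CPM in RA_0 and at 1177 and 528 CPM in AP_34d. Both AP_34d libraries lay far above RA_0, the PLA_34d libraries held 28.3 and 69.7 CPM, and the log2 change was 3.66 ± 0.58, a 12.2-fold ratio of the mean CPM (limma adjusted p 0.273, and between 5.25e-06 and 1 over the alternatives). Pdk4 (NM_053551, rn4 chr4:30235296-30245298, minus strand), which shuts the entry of pyruvate into the mitochondrion, stood at 119 and 319 CPM in RA_0 and at 1946 and 1094 CPM in AP_34d, with 92.4 and 363 CPM in PLA_34d. Its log2 change was 2.90 ± 0.67 (limma adjusted p 0.722, and between 0.00764 and 1 over the alternatives). Angptl4, a secreted inhibitor of lipoprotein lipase, rested on replicate 1: it stood at 1.91 and 12.6 CPM in RA_0 and at 107.8 and 12.996 CPM in AP_34d, so that replicate 2 lay just above the higher RA_0 library.

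G0s2 (NM_001009632, rn4 chr13:109121297-109122209, minus strand), an inhibitor of the lipase that releases fatty acids from stored fat, was lower: it stood at 17.4 and 35.6 CPM in RA_0 and at 4.88 and 4.18 CPM in AP_34d, and the PLA_34d libraries, at 34.9 and 29.3 CPM, lay with RA_0. The log2 change was -2.23 ± 0.38 (limma adjusted p 0.338, and between 0.000195 and 1 over the alternatives). Acsl4, which couples long fatty acids to coenzyme A and was chosen after its values were seen, stood at 38.9 and 51.2 CPM in RA_0 and at 109 and 279 CPM in AP_34d. The list of 30 fuel transcripts had 3 higher and 1 lower by the study's rule (1.49% and 1.33% of all transcripts). It had 4 and 1 without overlap (16.6% and 16.2% of all), and a median of 0.02. Its AP_34d libraries went opposite ways, since replicate 1 stood above both RA_0 libraries in 20 members (28.2% of all transcripts did) with a median of 0.60 and replicate 2 stood below both in 19 (36.6%) with a median of -0.44.

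The clock genes Arntl and Dbp, of opposite phase, stood on opposite sides of RA_0. Arntl (NM_024362, rn4 chr1:171062181-171162426, plus strand), the activator at the centre of the clock, stood at 2.62 and 3.86 CPM in RA_0 and at 24.8 and 17.5 CPM in AP_34d, and the PLA_34d libraries, at 7.07 and 5.69 CPM, lay between. The log2 change was 2.38 ± 0.33, a 6.52-fold ratio of the mean CPM and the smallest unadjusted p of the comparison (limma adjusted p 0.260, and between 8.42e-05 and 1 over the alternatives). Dbp (NM_012543, rn4 chr1:96173573-96178485, plus strand), a clock output factor, stood at 426 and 418 CPM in RA_0 and at 58.6 and 143 CPM in AP_34d, with 249 and 295 CPM in PLA_34d. Its log2 change was -2.19 ± 0.46 (limma adjusted p 0.515, and between 0.00948 and 1 over the alternatives). Both AP_34d libraries lay outside the range of RA_0 and of PLA_34d for these genes, and so did both libraries taken 1 h after the first acupuncture session (Arntl 22.6 and 24.9 CPM, Dbp 167 and 81.3 CPM), which share the same RA_0 libraries.

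The start of Arntl is shown because it holds the site through which ROR and REV-ERB factors are known to set its rhythm. The RefSeq window, under the current symbol Bmal1 (GRCr8, chr1:176766078-176766377, plus strand, 250 bases before the start to 50 after it), has the core of that site, TAGGTCA, in capitals from 16 to 10 bases before the start.
Arntl promoter: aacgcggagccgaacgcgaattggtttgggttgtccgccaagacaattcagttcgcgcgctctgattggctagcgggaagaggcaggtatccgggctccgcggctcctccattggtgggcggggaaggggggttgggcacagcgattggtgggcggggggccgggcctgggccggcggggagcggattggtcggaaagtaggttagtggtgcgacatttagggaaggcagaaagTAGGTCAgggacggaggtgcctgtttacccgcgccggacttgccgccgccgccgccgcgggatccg
The core was in 2.63% of all windows on either strand and in 1 of the 4 Arntl-phase genes with a window. The letters of the FoxO site also occur in this window, in lower case. The E-box CACGTG (6.42% of windows), through which Arntl acts, was in 2 of 7 Dbp-phase genes (Nr1d1 and Tef), and the D-box TTATGTAA (0.893%), through which Dbp acts, in 1 (Per2).

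Of 5 transcripts in the Arntl phase, 3 met the study's rule, all higher (1.49% of all did), and 4 lay above RA_0 without overlap (16.6% of all), with a median of 1.50. Clock, the partner of Arntl, stood at 4.53 and 2.38 CPM in RA_0 and at 7.42 and 20.2 CPM in AP_34d, and Nfil3, a repressor that peaks opposite to Dbp, at 21.2 and 17.5 against 90.8 and 34.7 CPM. Npas2, which can replace Clock, stood at 1.91 and 2.67 against 6.25 and 2.69 CPM, so that replicate 2 equalled the higher RA_0 library. Rora, a ROR factor that met the study's rule and was chosen after its values were seen, stood at 2.62 and 1.93 CPM in RA_0 and at 6.84 and 20.8 CPM in AP_34d. The Dbp phase was less even: of 7 transcripts 1 met the study's rule (Dbp, where 1.33% of all did as lower), and 3 lay below RA_0 without overlap (16.2% of all did). The median was -0.41. Replicate 1 lay below both RA_0 libraries in all 7 (32.2% of all transcripts did), with a median of -0.72. Replicate 2 lay below both in 3 and above both in 2 (36.6% and 39.1% of all), with a median of -0.03. The period gene Per1 stood at 116 and 140 against 96.9 and 96.3 CPM. Per2 (57.7 and 88.4 against 22.5 and 69.8 CPM) and Per3 (27.7 and 61.5 against 17.4 and 53.5 CPM) overlapped.

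**Figure D3:**
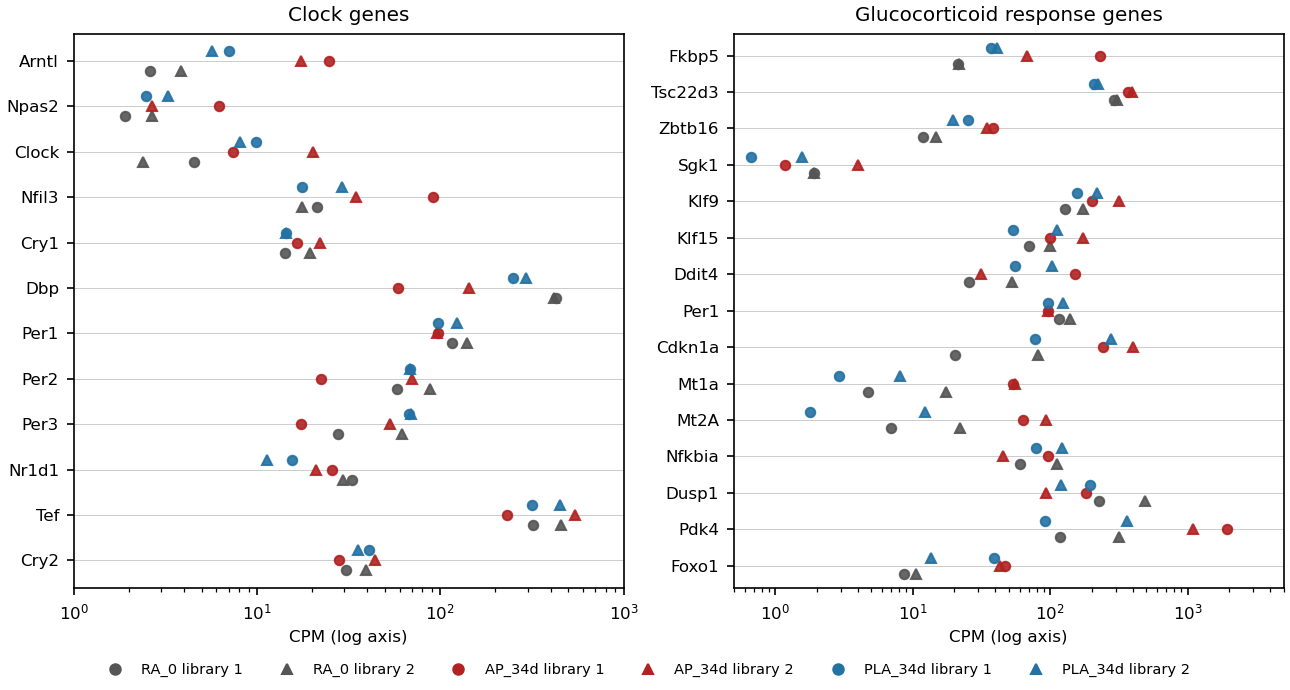
Level in CPM (log axis) of clock genes (left) and glucocorticoid response genes (right), 1 point per library, with RA_0 in grey, AP_34d in red and PLA_34d in blue, circles for replicate 1 and triangles for replicate 2. Arntl and Fkbp5 lie to the right of both other groups in AP_34d and Dbp to the left, while Per2 and Per3 overlap.

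Genes that glucocorticoids are known to induce were counted next. Of 15 transcripts on the list, 7 met the study's rule as higher and 1 as lower (1.49% and 1.33% of all), 10 and 2 did not overlap (16.6% and 16.2%), and the median was 0.90. The 7 include Pdk4 and Foxo1, described above, and Cdkn1a, described below and also on the p53 list. They also include metallothioneins, which other signals also induce. Fkbp5 (NM_001012174, rn4 chr20:6637478-6722753, minus strand), a chaperone of the glucocorticoid receptor, stood at 21.5 and 21.7 CPM in RA_0 and at 229 and 68.3 CPM in AP_34d, with 36.9 and 40.9 CPM in PLA_34d. Its log2 change was 2.48 ± 0.50 (limma adjusted p 0.419, and between 0.000327 and 1 over the alternatives), and replicate 1 held far more than replicate 2. Zbtb16, a transcription factor, stood at 11.9 and 14.7 against 38.3 and 34.5 CPM. Tsc22d3 (GILZ), often used as a glucocorticoid marker, lay nearer to RA_0, at 292 and 307 against 368 and 397 CPM, a log2 change of 0.35 ± 0.30, and Klf9 at 127 and 172 against 202 and 314 CPM. Dusp1, a phosphatase that is also an immediate early gene, was the member that met the rule as lower, at 225 and 490 against 182 and 94.0 CPM.

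Both metallothioneins and the Nrf2 target Hmox1 stood higher in both AP_34d libraries. Mt1a and Mt2A, small proteins that bind zinc and copper, stood at 4.77 and 17.5 CPM and at 6.92 and 22.3 CPM in RA_0, and at 53.5 and 55.4 CPM and at 63.7 and 93.1 CPM in AP_34d. Both lay below RA_0 or within it in PLA_34d, which held 2.92 and 8.10 CPM of Mt1a and 1.79 and 12.2 CPM of Mt2A. Hmox1, the enzyme that breaks down heme, stood at 4.29 and 15.4 against 40.4 and 74.2 CPM, a log2 change of 2.58 ± 0.66. These were the 3 of 19 members of the Nrf2 target list that met the study's rule (1.49% of all did as higher), 8 lay above RA_0 without overlap (16.6% of all), 7 had a fitted change below 0, and the median was 0.32. Srxn1 and Txnrd1, which repair oxidised proteins and were named after their values were seen, rested on replicate 2: Srxn1 stood at 17.9 and 26.3 CPM in RA_0 and at 30.7 and 127 CPM in AP_34d, and Txnrd1 at 88.7 and 117 against 132 and 327 CPM.

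Cdkn1a (p21, NM_080782, rn4 chr20:7376325-7386778, plus strand), an inhibitor of the cell cycle induced by p53, FoxO and glucocorticoid signals alike, stood at 20.3 and 81.4 CPM in RA_0 and at 243 and 403 CPM in AP_34d, a log2 change of 2.91 ± 0.68 (limma adjusted p 0.722, and between 0.0201 and 1 over the alternatives). PLA_34d stood at 77.1 and 277 CPM, so that its higher library lay among those of AP_34d. Tp53inp1, a p53 target of autophagy, stood at 1.91 and 6.68 against 10.5 and 45.7 CPM and, with Cdkn1a, made up the 2 of 10 p53 list members that met the study's rule (1.49% of all transcripts did as higher).

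Immediate early genes, which answer nerve activity, stretch or injury within minutes, did not go 1 way. Of 21 transcripts, 1 met the study's rule as higher and 2 as lower (1.49% and 1.33% of all), 4 lay above RA_0 without overlap and 6 below (16.6% and 16.2% of all), and the median was -0.25. Arc stood at 16.7 and 33.6 CPM in RA_0 and at 7.03 and 1.34 CPM in AP_34d, a log2 change of -2.51 ± 0.78. Egr1, chosen after its values were seen, stood at 63.5 and 222 against 21.3 and 47.1 CPM, and Nr4a1, likewise, at 438 and 473 against 348 and 56.6 CPM. Fosl1 (0.716 and 1.78 against 1.95 and 17.9 CPM) was the member that met the rule as higher, through replicate 2. It had entered only through AP_34d.

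The study followed 8 genes of adenosine signalling, inflammation and cell shape in blood or joint cells of a second batch of rats. It measured the products of Adora2a, Adora3, Ada, S100a8 and S100a9 as proteins in serum, with treated serum taken halfway through the therapy. Fos, Wnt5b and Gjb2 were measured as RNA in cultured joint cells. The muscle RNA given here thus differs from these in measure, tissue and time. In this muscle 5 of them reached the level set, and all 5 overlapped between AP_34d and RA_0. Fos stood at 21.7 and 123 CPM in RA_0 and at 26.6 and 28.4 CPM in AP_34d. The adenosine receptor Adora2a stood at 9.54 and 7.87 against 9.37 and 5.98 CPM, and adenosine deaminase, Ada, at 3.10 and 6.39 against 7.62 and 3.29 CPM. S100a8 and S100a9, calcium-binding proteins of neutrophils, stood at 1.67 and 1.34 against 0.195 and 2.09 CPM and at 4.53 and 4.16 against 1.37 and 4.33 CPM. The largest of the 5 log2 changes in size was that of Fos, -0.90 ± 0.99. Adora3, Wnt5b and Gjb2 were not among the 9815.

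Genes of slow fibres, of oxidative phosphorylation and of the ribosome stood lower in AP_34d replicate 2 than in replicate 1. The medians of the fast fibre and glycolysis lists did so too. The slow myosin Myh7 stood at 7398 and 4565 CPM in RA_0 and at 4064 and 813 CPM in AP_34d, and at 11934 and 499 CPM in PLA_34d, so that the PLA_34d replicates differed more from each other than the other groups did. The 14 slow fibre transcripts summed to 23754 and 11929 CPM in RA_0, 14255 and 2445 CPM in AP_34d and 23535 and 2142 CPM in PLA_34d. Their median log2 change was -1.66, with -0.38 in replicate 1 and -2.62 in replicate 2, and 7 lay below RA_0 without overlap (16.2% of all transcripts did). The study's rule was met by 1 (1.33% of all did as lower): Myh7b, a slow myosin, at 79.7 and 71.3 against 25.2 and 11.5 CPM. The symbols Myh7 and Myh7b overlap other symbols in the annotation, so that their reads are uncertain. The troponins of slow fibres stood in the same order, with Tnnt1 at 1874 and 1015 against 1010 and 203 CPM, Tnnc1 at 1798 and 1019 against 1018 and 157 CPM, and Tnni1 at 1472 and 828 against 872 and 140 CPM. In bulk tissue such as this, fewer cells of a type and less RNA per cell cannot be told apart.

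Of 14 fast fibre transcripts, 0 met the study's rule, 2 lay above RA_0 without overlap and 2 below (16.6% and 16.2% of all transcripts did). Replicate 2 lay below both RA_0 libraries in 10 and above both in 3 (36.6% and 39.1% of all), with a median of -0.68. Replicate 1 lay below both in 2 (32.2%) and had a median of 0.10. Of 24 transcripts of glycolysis and glycogen, replicate 2 lay below both in 15 (median -0.66) and replicate 1 in 3 (median 0.06). Myh4, the fastest myosin, stood at 32281 and 23345 CPM in RA_0 and at 41736 and 62049 CPM in AP_34d, while Myh2, of intermediate fast fibres, overlapped (11133 and 11502 against 11209 and 6194 CPM). All 76 transcripts of oxidative phosphorylation had a negative fitted change, with a median of -0.52 and 0 meeting the study's rule. That sign came from replicate 2, which lay below both RA_0 libraries in 76 of 76 (36.6% of all transcripts did) with a median of -1.13, while replicate 1 did so in 2 (32.2%) and had a median of 0.15. One PLA_34d library stood as low (-1.15) and the other did not (0.02). Likewise, of 81 transcripts of the cytosolic ribosome, replicate 2 lay below both RA_0 libraries in 76 (36.6% of all transcripts did), with a median of -0.76. Replicate 1 did so in 1 (32.2%) and had a median of 0.08. Neither the oxidative phosphorylation list nor the ribosome list was thus lower in both AP_34d libraries.

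Among genes that handle calcium in the fibre, Fsd2, a protein of the junction where calcium is released, was the 1 of 13 that met the study's rule (1.33% of all transcripts did as lower). It stood at 250 and 193 CPM in RA_0 and at 82.4 and 62.7 CPM in AP_34d (log2 change -1.60 ± 0.49). Ankrd1, a stretch-responsive protein of the Z-disc, was the 1 of 15 on the load list (1.49% of all transcripts did as higher), at 23.4 and 190 against 340 and 460 CPM, and PLA_34d held 108 and 341 CPM. Runx1, which muscle fibres make when they lose their nerve, was the 1 of 14 on the list of the neuromuscular junction (1.49% of all transcripts did as higher). It rested on replicate 2: it stood at 4.77 and 3.27 CPM in RA_0, 6.05 CPM in AP_34d replicate 1 and 53.5 CPM in replicate 2.

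**Figure D4:**
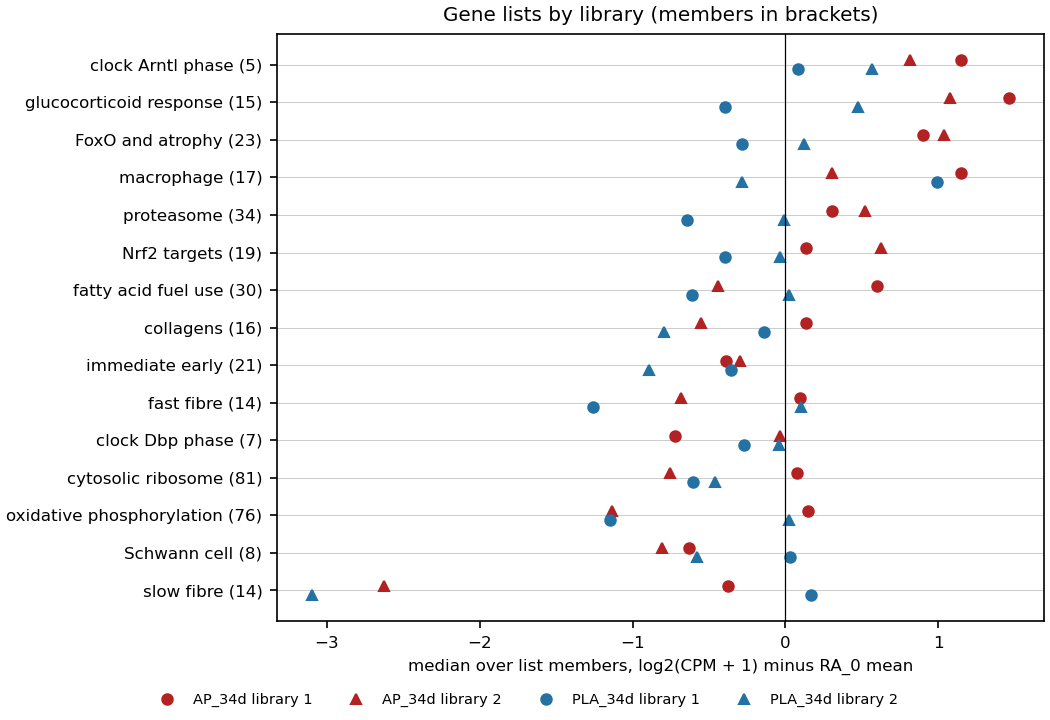
Median over the members of each gene list of log2(CPM + 1) minus the RA_0 mean, for each AP_34d library (red) and each PLA_34d library (blue), with the number of members in brackets. Both AP_34d points lie right of 0 for the FoxO and atrophy list (0.90 and 1.04) and the proteasome (0.31 and 0.52), and on opposite sides of 0 for oxidative phosphorylation (0.15 and -1.13).

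Several markers of macrophages stood higher in both AP_34d libraries. Of 17 transcripts, 3 met the study's rule, all higher (1.49% of all did), 11 lay above RA_0 without overlap (16.6% of all) and none below, and the median was 0.71, with 1.15 in replicate 1 and 0.30 in replicate 2. Cd163 and Mrc1, scavenger receptors of resident macrophages, stood at 3.34 and 4.46 CPM and at 6.92 and 10.7 CPM in RA_0, and at 18.2 and 19.9 CPM and at 27.5 and 21.1 CPM in AP_34d. The defining markers Cd68 (3.58 and 5.35 against 10.9 and 5.53 CPM) and Csf1r (18.1 and 19.3 against 34.4 and 23.3 CPM) lay closer, and one PLA_34d library exceeded AP_34d in both, at 15.9 and 78.5 CPM. Gpnmb, a glycoprotein of macrophages and of regenerating or denervated muscle, stood at 9.54 and 8.61 CPM in RA_0 and at 78.1 and 127 CPM in AP_34d, a log2 change of 3.32 ± 0.97, and at 19.1 and 6.68 CPM in PLA_34d. The summed level of the 17 markers was 176 and 166 CPM in RA_0, 451 and 328 CPM in AP_34d and 411 and 132 CPM in PLA_34d.

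Of the T and cytotoxic cell list only Cd4 and Ccl5 reached the level set, and both lay above RA_0 without overlap (16.6% of all transcripts did). Cd4 stood at 5.25 and 4.31 against 12.1 and 6.72 CPM and Ccl5, a chemokine of T cells, at 1.19 and 1.04 against 2.73 and 1.34 CPM. The T cell marker Cd3e stood at or below 0.299 CPM in all RA_0 and AP_34d libraries, under the level of 3 reads, whereas PLA_34d replicate 1 held 36.3 CPM of Cd3e, with 172 CPM of Glycam1, a product of lymph node vessels. That library therefore differs from the other 5 in its lymphoid genes, and their part in any difference between AP_34d and PLA_34d was not tested. The 8 class II antigen genes all had a fitted change above 0, with 0 by the study's rule and 2 above RA_0 without overlap (16.6% of all transcripts). Their median was 0.85 in replicate 1 and -0.16 in replicate 2. The interferon list had 0 by the rule and 5 of 23 below RA_0 without overlap, where 16.2% of all transcripts did. Of 7 cytokine and receptor transcripts, 3 lay above RA_0 without overlap and 1 below (16.6% and 16.2% of all transcripts did). The median was 1.01 (0.20 in replicate 1 and 1.41 in replicate 2). The rule was met as higher by 2 (1.49% of all), both parts of the interleukin 6 family. Osmr, the oncostatin M receptor, stood at 2.86 and 5.20 against 7.62 and 28.1 CPM. Il6st (gp130), the chain they share, stood at 169 and 257 against 317 and 554 CPM. The chemokine Ccl7, which draws monocytes, was the 1 of 20 chemokines and receptors that met the rule (1.49% of all transcripts did as higher). It stood at 0.477 and 1.49 against 2.93 and 16.3 CPM and had entered only through AP_34d. On that list 8 lay above RA_0 without overlap and 5 below (16.6% and 16.2% of all). Schwann cell transcripts had a median of -0.77, 3 of 8 lying below RA_0 without overlap (16.2% of all). The median was 0.06 without RA_0 replicate 2 and -1.52 without RA_0 replicate 1, and the markers summed to 192 and 584 CPM in RA_0 and to 175 and 169 CPM in AP_34d. Among the 3 was the myelin protein Pmp22 at 92.3 and 220 against 79.9 and 70.7 CPM. Collagens (0 of 16 by the rule, 0 without overlap, median -0.12) overlapped throughout.

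Further higher transcripts with a small unadjusted p included genes of the cytoskeleton. Map1b, a microtubule protein of nerve and regenerating muscle, stood at 26.2 and 44.0 CPM in RA_0 and at 124 and 188 CPM in AP_34d (log2 change 2.13 ± 0.37, limma adjusted p 0.338, and between 0.00081 and 1 over the alternatives), against 51.2 and 44.8 CPM in PLA_34d. Tubb6, a tubulin, stood at 20.8 and 18.7 against 64.5 and 147 CPM, and these were the 2 of 16 on the tubulin list that met the rule (1.49% of all transcripts did as higher). Dapk1, a kinase of cell death and autophagy, stood at 14.6 and 14.1 against 49.2 and 59.5 CPM. Mrgprg, an orphan receptor, stood at 0.239 and 0.594 CPM in RA_0, where the first value is less than the level of 3 reads, and at 10.5 and 7.02 CPM in AP_34d. Krt18, a keratin of simple epithelia, stood at 0.239 and 0.297 CPM, both less than 3 reads, and at 4.49 and 2.69 CPM. Mrgprg and Krt18 reached the level set only in AP_34d, and so entered through the group in which they are higher. For these last genes the log2 change depends on the pseudocount. It ran from 1.52 to 4.24 for Mrgprg and from 0.82 to 3.61 for Krt18 over the alternatives other than DESeq2. DESeq2 gave 4.32 for Mrgprg and 3.70 for Krt18.

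Among transcripts that DESeq2 called and that are not described above, named after their values were seen, Mical2, an actin-oxidising enzyme, stood at 21.5 and 12.5 CPM in RA_0 and at 113 and 147 CPM in AP_34d. Fam134b, a receptor that feeds endoplasmic reticulum to autophagy, stood at 275 and 228 against 1422 and 507 CPM. PVR, the poliovirus receptor, stood at 4.06 and 8.91 against 15.8 and 135 CPM, and Met, the receptor of hepatocyte growth factor, at 8.35 and 11.9 against 20.3 and 76.9 CPM, both mostly through replicate 2. Single members of further lists met the rule as higher (1.49% of all transcripts did): the AMP deaminase Ampd3 (26.0 and 14.7 against 57.4 and 148 CPM), the spermidine acetyltransferase Sat1 (23.9 and 46.9 against 55.1 and 189 CPM) and the chaperone Hsp90aa1 (38.6 and 46.3 against 60.4 and 157 CPM).

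The lower transcripts named next are among those with the smallest unadjusted p, not those with the largest change. Nrep (NM_178096, rn4 chr18:25842127-25868219, minus strand), a small protein linked to nerve regeneration, stood at 83.7 and 78.4 CPM in RA_0 and at 12.3 and 16.6 CPM in AP_34d, with 34.3 and 44.8 CPM in PLA_34d between them (log2 change -2.42 ± 0.44, limma adjusted p 0.358, and between 0.000873 and 1 over the alternatives). Sec14l5 stood at 26.2 and 23.2 against 2.93 and 5.98 CPM. Cited4, a cofactor known from trained heart muscle, stood at 42.0 and 27.2 against 8.79 and 6.12 CPM, and PLA_34d was low as well, at 9.76 and 17.1 CPM. Dgkz, a diacylglycerol kinase known to promote muscle growth, stood at 91.1 and 89.3 CPM in RA_0 and at 38.9 and 23.9 CPM in AP_34d, whereas PLA_34d lay above RA_0 at 114 and 111 CPM. The sialidase Neu2 stood at 45.1 and 67.4 against 12.3 and 4.03 CPM, and Wfdc1, a secreted protease inhibitor, at 104 and 51.1 against 20.7 and 7.77 CPM.

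Of the transcripts lower in AP_34d that remain, Aldh1a1, which makes retinoic acid, stood at 231 and 217 CPM in RA_0 and at 62.7 and 87.1 CPM in AP_34d, but PLA_34d held 126 and 75.1 CPM, so that the 34 day groups overlapped. Smtn, a protein of smooth muscle, stood at 91.6 and 71.9 against 34.6 and 27.6 CPM, the potassium channel Kcnh2 at 15.5 and 5.05 against 0.977 and 2.09 CPM, and the unnamed gene RGD1307461 at 99.5 and 143 against 35.4 and 22.9 CPM. Kcnh2 reached the level set only in RA_0, and so entered through the group in which it is higher. Esm1, a product of endothelial tip cells and the 1 of 14 endothelial markers that met the rule (1.33% of all transcripts did as lower), stood at 28.9 and 32.7 against 9.18 and 3.73 CPM. Of those 14 markers, 2 lay above RA_0 without overlap and 4 below (16.6% and 16.2% of all). The matrix protein Ctgf stood at 78.5 and 124 against 69.5 and 19.6 CPM. Tfrc, the transferrin receptor, chosen after its values were seen, stood at 455 and 130 against 62.3 and 74.4 CPM.

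**Figure D5:**
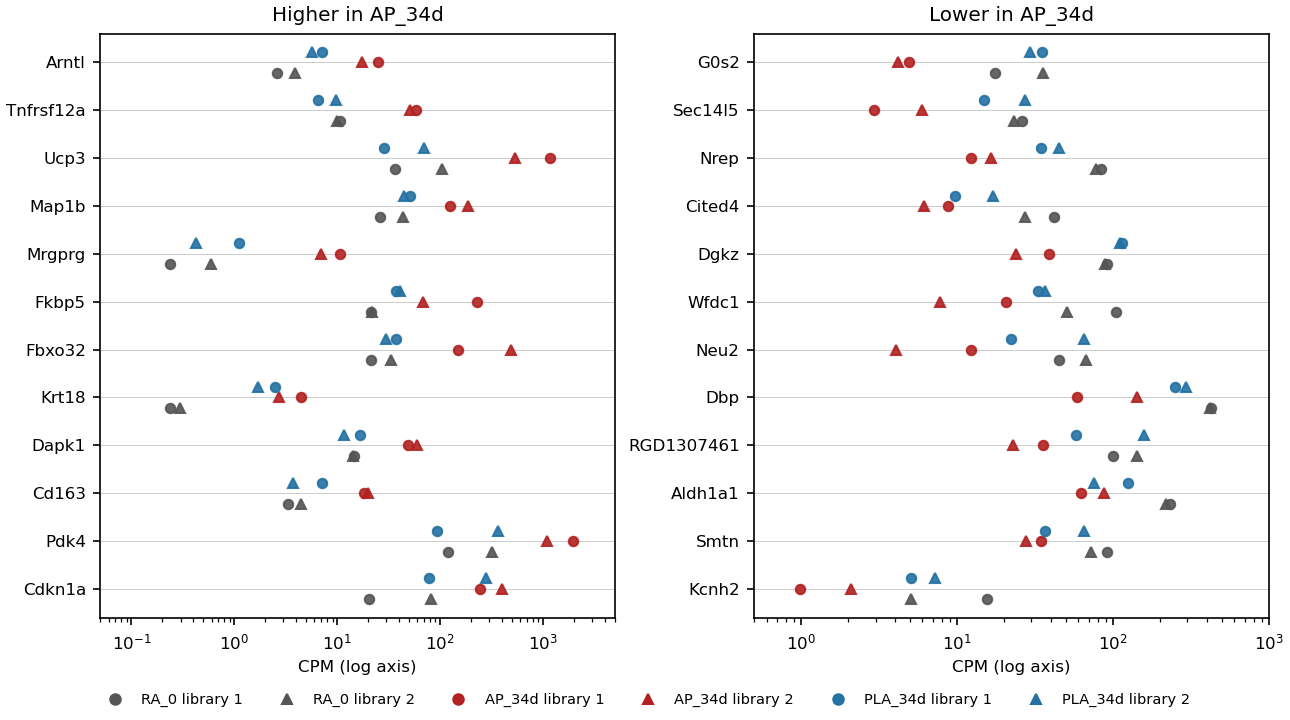
Level in CPM (log axis) of the transcripts that met the study's rule without overlap, the 12 lowest by unadjusted p in each direction, 1 point per library, with RA_0 in grey, AP_34d in red and PLA_34d in blue. Red lies outside grey in every gene because the choice required it, and blue lies with grey for Ucp3, Tnfrsf12a and G0s2 and between or with red for Cdkn1a, Cited4 and Aldh1a1.

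AP_34d was also compared with PLA_34d, taken after the same 34 days. These groups differ in needling, in the saline injection and perhaps in the hour of sampling, which cannot be told apart here. limma called 0 transcripts (0%) there as well, with 561 at an unadjusted p under 0.05 and a smallest adjusted p of 0.147. limma-voom and edgeR called 0 (492 and 772 at an unadjusted p under 0.05) and DESeq2 called 90 (790), or 0.895% of those to which it gave an adjusted p. The study's rule was met by 142 transcripts higher in AP_34d (1.38%) and 224 lower (2.18%). The AP_34d libraries are part of both comparisons, so the counts are not independent. The genes with the smallest adjusted p of this comparison include Ucp3 (log2 difference 4.12), G0s2 (-2.58) and Tnfrsf12a (2.62), each at 0.147, for which PLA_34d lay with RA_0. Fbxo32 (2.98), Trim63 (2.73) and Pdk4 (2.98) had an adjusted p of 0.756, Fkbp5 (1.66) and Dbp (-1.55) of 0.846, and Arntl (1.57) of 0.683. Of the 150 higher and 136 lower transcripts described that met the study's rule against RA_0, 66 and 38 also met it against PLA_34d. Foxo1 (0.91), Cdkn1a (1.09), Zbtb16 (0.68), Krt18 (0.56) and Cblb (0.51) were among those that did not. Krt18 held 2.47 and 1.71 CPM in PLA_34d, and Cblb 29.7 and 20.6 CPM. Chac1, which degrades glutathione in stressed cells and was chosen after its values were seen, stood at 113 and 76.5 CPM in RA_0, 268 and 134 CPM in AP_34d and 13.6 and 15.5 CPM in PLA_34d, so that the 34 day groups lay on opposite sides of RA_0. Several higher genes already stood above RA_0 at 1 h after the first acupuncture session, and are not particular to 34 days. Ucp3 held 858 and 1008 CPM there, Pdk4 561 and 979, Tnfrsf12a 37.2 and 66.6, and Trim63 2666 and 680 CPM. Fkbp5 held 239 and 149 CPM and Cdkn1a 368 and 286 CPM. Others did not follow: Krt18 was still low at 1 h (0.649 and 0.560 CPM), and G0s2 was not yet low (42.7 and 28.3 CPM).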

How the data were processed

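The authors sequenced RNA of tissue beneath the skin, muscle included, in 10 libraries (5 groups of 2). The submitters' processing notes name CASAVA 1.8.2, cutadapt 1.2.1, Bowtie2 2.1.0, HTSeq 0.5.4p3, edgeR 3.4.2 and the rat build rn4, and whether counting used strand is not given in the sources used here. The deposited values are a signal per transcript: read counts scaled by the authors to CPM with TMM factors. In every library 100% of values were whole multiples of 1 read within 0.01 reads, so that the reads behind them could be recovered. Of the 9815 transcripts described, 737 overlap another symbol and are uncertain.

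Values were analysed as log2(CPM + 1), a scale that understates changes of low transcripts. limma 3.58.1 (R 4.3.3) was fitted with eBayes and a mean trend over all 10 libraries, with 1 mean per group, on the 10259 transcripts that reached 1 CPM in each library of some group, two-sided, with Benjamini-Hochberg adjustment over all of them. The residual degrees of freedom were 5. The smallest p of an exact permutation test of 2 against 2 libraries is 0.333, and single values were not tested that way. Alternatives were limma-voom, edgeR 4.0.16 and DESeq2 1.42.0 on the recovered reads, pseudocounts of 0.25 and 4, other filters and scalings, a table without its 20 most abundant transcripts, fitting only the compared groups, dropping the mean trend, a replicate block, and omission of every library by turns. The code was tested on simulated counts. Python 3.11.15 and matplotlib 3.10.9 were used. Gene symbols and rn4 coordinates are those of the deposited table, and promoter windows came from RefSeq (GRCr8).

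The comparison, the gene lists and the tests were chosen with earlier results of these data known, so that no list is independent evidence of its direction. Of the transcripts that met the study's rule without overlap, up to 12 in each direction, lowest by unadjusted p, are named, with the first members of each list and those of its members meeting the rule, and the 8 genes the study followed. Other genes are said to have been chosen after their values were seen. SE is limma's standard error, and limits from read counts cover counting error only. Results on a few withheld items are not reported here.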

Additional observations from a re-analysis of the deposited data

How the results depend on the processing

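The count of limma calls for AP_34d against RA_0 was 0 under all settings tried except DESeq2 (33), leaving out any 1 library included. The count meeting the study's rule (289) was 161 with a pseudocount of 4, 191 without a filter, and between 226 (without AP_34d replicate 2) and 899 (without AP_34d replicate 1) with single libraries left out. In these fits the lone sample of a group is assumed to vary like the others. The share of higher transcripts among them was 52.9% as reported and 34.8% without RA_0 replicate 1. For AP_34d against PLA_34d the calls went from 0 to 19 without a filter, to 90 with DESeq2, and to between 0 and 174 with single libraries left out, the 174 being without PLA_34d replicate 2. The 3220 transcripts without overlap became 5932 and 7430 for AP_34d replicate 1 and replicate 2 alone, a reading added after seeing the data. With the replicate block, 0 were called and 291 met the study's rule. Replicate numbers pair nothing that is stated: the correlation of same-numbered deviations was 0.322 between RA_0 and AP_34d and ran from -0.464 to 0.446 among the group pairs.

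A named gene whose AP_34d and RA_0 libraries did not overlap cannot change direction when 1 library is left out. The next count is therefore no support for such genes. Of 106 named genes, 100 kept their direction under every alternative scored, which left out DESeq2. The other 6 were Psma7 (-0.31 without RA_0 replicate 2, with left-out libraries giving up to 0.67), Per3 (0.14 without RA_0 replicate 2 and 0.36 without AP_34d replicate 1, down to -1.20), Fos (0.33 without RA_0 replicate 2, down to -2.13), Adora2a (0.10 without AP_34d replicate 2, down to -0.47), Ada (-0.28 without RA_0 replicate 1 and -0.36 without AP_34d replicate 1, up to 0.65) and S100a8 (0.31 without AP_34d replicate 1, down to -1.06), all on the log2 scale, and the cause was not tested. Of 569 list medians under the alternatives, 58 moved by more than the SD of the library medians. Precision is limited by 2 libraries per group and, for transcripts near 1 CPM, by depth: 1 CPM stood for between 4.19 and 6.73 reads in the RA_0 and AP_34d libraries.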

Other observations

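The study compiled 7 gene sets, and their members were counted by its rule in AP_34d against RA_0 (1.49% of all transcripts tested met it as higher and 1.33% as lower). The median log2 changes lay between -0.26 (Mec.E., early mechanotransduction, 36 transcripts) and 0.14 (InflGO, inflammatory response, 252 transcripts). InflGO had 13 higher and 1 lower, rwGO (response to wounding, 392 transcripts) 13 and 1, whGO (wound healing, 211 transcripts) 4 and 0, EMT (epithelial to mesenchymal transition, 203 transcripts) 4 and 4, EMT.T2 (its type of wound repair, 57 transcripts) 1 and 2, Mec.E. 0 and 1, and Heal.E. (early healing, 63 transcripts) 0 and 0. The sets share genes: Hmox1 is in InflGO, rwGO and whGO, and Tnfrsf12a in rwGO and whGO.

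Some genes that did not meet the rule, chosen after their values were seen, had libraries of AP_34d and RA_0 that did not overlap. Above stood Stat3, the factor that takes the signal of gp130 to the nucleus, at 83.0 and 91.5 against 101 and 324 CPM and Myc, a growth factor response gene, at 6.92 and 22.3 against 29.7 and 44.2 CPM (RA_0 first). Casq2, the calcium store protein of slow fibres, stood below at 147 and 127 against 83.0 and 21.7 CPM, as did the Schwann cell genes Cnp (37.7 and 43.2 against 19.9 and 19.7 CPM) and Sox10 (3.82 and 6.09 against 3.32 and 2.39 CPM).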
